A study of Mus musculus with 8 samples.

Results

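The mesothelial cells of the ascending thoracic aorta, the first stretch of the aorta above the heart, were described from droplet single-cell RNA libraries of 3 wild-type mice aged 11, 12 and 13 weeks, 1 animal per age. The animals were tagged with hashtag antibodies (TotalSeq-B), whose oligos are read with the cells' RNA, and pooled in 1 deposited matrix of 48467 barcodes. Mesothelial barcodes were those with at least 3 UMIs (unique molecular identifiers, each standing for 1 captured transcript) of Upk3b, Msln, Muc16, Lrrn4 and Krt19 together, with at least 2 of these 5 gate markers detected. They also had to hold under 1.5% of their UMIs in the smooth muscle genes Acta2, Tagln and Myh11. After a filter of at least 500 genes, at most 20% mitochondrial UMIs and under 5% haemoglobin UMIs, 24455 barcodes remained and 88 of them were mesothelial. They were set against 2766 fibroblast barcodes (Dcn at 0.3% of UMIs or more, not mesothelial) and 21601 other barcodes of the filter, in which the 3 muscle genes had a median of 2.35% of UMIs. All groups come from the same young wild-type animals, whose aortas were digested with collagenase II and elastase and cleared of dead cells. The 4 gene expression and 4 hashtag libraries share 1 barcode suffix in the matrix, so a barcode could not be traced to its library and barcodes that libraries share could not be counted.

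Mesothelium is the single layer of flat cells that covers the organs of the chest and abdomen and lines their cavities. It carries microvilli, secretes a slippery fluid film and joins epithelial features (keratins, claudins, apical proteins) to a mesodermal origin, with transcription factors such as Wt1 shared with the epicardium of the heart. The ascending aorta lies inside the pericardial sac, whose inner leaf continues over the heart and the root of the great vessels.

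Which animal a barcode came from was read from the hashtag oligos. They are shown because every value by animal below rests on them.
hashtag 1, the animal of 11 weeks: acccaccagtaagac
hashtag 2, the animal of 12 weeks: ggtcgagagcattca
hashtag 3, the animal of 13 weeks: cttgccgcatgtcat
A single hashtag was called on 31 of the 88 mesothelial barcodes (35.2%), 7, 12 and 12 from the animals of 11, 12 and 13 weeks. The call rate was 17.6% in fibroblast barcodes and 16.2% in all others. A further 33 mesothelial barcodes carried several hashtags and 24 none. A caller on hashtag ratios gave the same animal to 24 of the 31 and another animal to 0. Levels by animal below are from these barcodes, in the order 11, 12 and 13 weeks, and pooled levels are from all 88.

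Mesothelial barcodes had a median of 3746 UMIs and 1673 genes, against 3680 and 1538 in fibroblast barcodes and 3434 and 1461 in all others. Mitochondrial UMIs had medians of 13.3%, 11.5% and 13.3% in the same order. The 88 barcodes held 409925 UMIs in all, and the 31 with a single hashtag held 54380, 70600 and 67489 by animal. Levels are given in CPM, UMI counts of a gene divided by all gene UMIs of its sum and scaled to a common total. The 31 were unlike the rest of the 88. They had medians of 4860 UMIs and 30 UMIs of the gate markers, against 3492 and 8 with several hashtags and 2744 and 10 with none. Acta2, Tagln and Myh11 together stood at 2224 CPM in the 31, against 6342 CPM with several hashtags and 5515 CPM with none. Levels by animal and tests below rest on the 31 alone. Of 153 barcodes that reached 3 gate UMIs, 146 had 2 markers or more, and 58 of those exceeded the muscle limit.

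Mesothelial barcodes were rare, at 0.360% of the filter (exact 95% binomial interval 0.289 to 0.443%, counting error only). By animal the share was 0.501% (7 of 1397), 1.11% (12 of 1085) and 0.777% (12 of 1544), with exact intervals of 0.202 to 1.03%, 0.573 to 1.92% and 0.402 to 1.35%. The mean was 0.795% ± 0.303 (SD, n = 3). The intervals of the 3 animals overlap, and with 1 animal per age no age was tested. The shares by animal are of single-hashtag barcodes and the pooled share is of the whole filter, and the call rates of the classes differed as given above.

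The 5 gate markers chose the barcodes, so their levels are a description. Upk3b encodes a uroplakin, a membrane plaque protein of urothelium and mesothelium, Msln the surface protein mesothelin, and Muc16 a large mucin that binds mesothelin. Lrrn4 encodes a leucine-rich repeat membrane protein and Krt19 an epithelial keratin. Upk3b stood at 2023, 1983 and 2000 CPM in the mesothelial barcodes of the 3 animals, at 0, 4.44 and 8.53 CPM in fibroblast barcodes and at 1.73, 3.27 and 2.16 CPM in all others. It was the most even of the 5 between animals. Msln stood at 515, 1147 and 993 CPM, against 4.85, 1.48 and 2.44 CPM in fibroblast barcodes. Muc16 stood at 864, 1275 and 1022 CPM, against 0, 1.48 and 0 CPM in fibroblast barcodes. The 11-week animal was lowest for both. Lrrn4 ran the other way, at 662, 496 and 311 CPM, as did Krt19, at 717, 467 and 415 CPM, both highest in the 11-week animal.

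Of the 88 barcodes, 35 held all 5 markers, 24 held 4, 20 held 3 and 9 held 2. Upk3b was seen in 83 of them and Lrrn4 in 59. Gate UMIs per barcode ranged between 3 and 94 with a median of 16.5. With every barcode thinned to 1000 UMIs, Upk3b was detected in 71.8% of mesothelial, 0.401% of fibroblast and 0.499% of other barcodes (94.3%, 0.868% and 1.22% before thinning). Upk3b is a gate marker, so the rule itself keeps these shares apart.

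**Figure D1:**
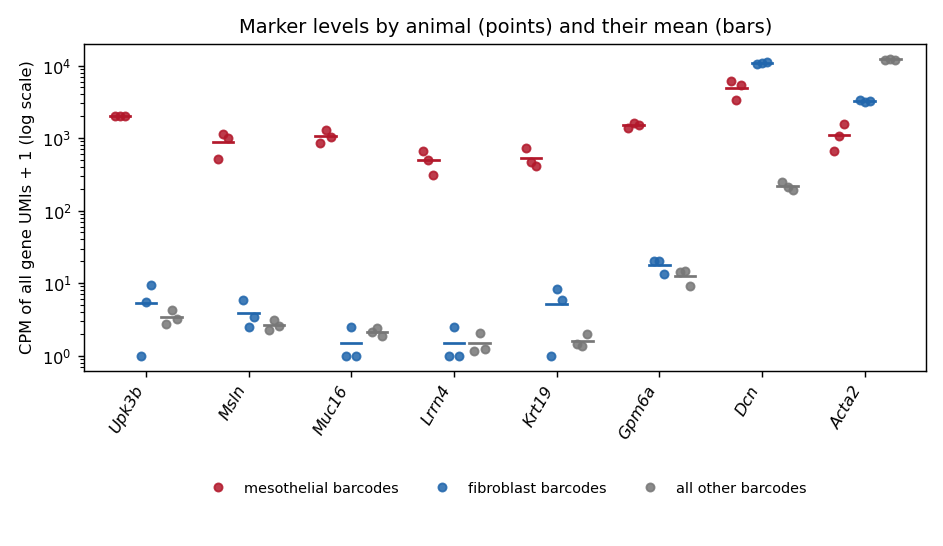
Levels of the 5 gate markers, of Gpm6a and of the genes Dcn and Acta2, which also enter the class rules, as CPM + 1 on a log axis; each point is 1 animal and each bar the mean of 3. Upk3b lies near 2000 CPM in all 3 mesothelial samples and under 10 CPM elsewhere, and Dcn in mesothelial barcodes lies below fibroblast and above other barcodes.

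Gpm6a, a neuronal and mesothelial membrane glycoprotein, is a mesothelial marker that the gate did not read. It stood at 1361, 1629 and 1497 CPM in mesothelial barcodes, against 19.4, 19.2 and 12.2 CPM in fibroblast and 13.1, 13.6 and 8.28 CPM in other barcodes. The groups did not overlap, which for 3 samples each is a description. It was seen in 70 of the 88 barcodes, in 79.5% against 3.29% of fibroblast and 4.44% of other ones. Markers of other epithelia were at or near 0 in the 88 barcodes. Cdh1, Foxj1, Krt5, Scgb1a1 and Sftpc had 0 UMIs, and of 13 such genes only Epcam (2 UMIs) and Krt14 (5 UMIs) had any. Of 5 lymphatic markers, Lyve1 among them, 0 were detected. Of 9 macrophage markers 8 were detected, with Cd163 at 0. Pooled, the 9 summed to 43.9 CPM, against 77.5 CPM in fibroblast and 135 CPM in other barcodes.

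Gpm6a and the keratins Krt7, Krt8 and Krt18, none of them in the gate, were also followed by the number of gate UMIs. Among barcodes under the muscle limit, Gpm6a stood at 12.0 CPM with 0 gate UMIs, 49.4 with 1 and 119 with 2. Just inside the limit, with 3 to 4 gate UMIs, it stood at 255 CPM (19 barcodes, exact 95% Poisson interval 128 to 457). It then stood at 429 CPM with 5 to 9, 1366 with 10 to 29 and 1665 with 30 or more. The 3 keratins summed to 4.19, 31.8 and 119 CPM below the gate, 255 CPM at 3 to 4 gate UMIs and 984 CPM at 30 or more. The interval with 2 gate UMIs, 54.2 to 225 CPM for either measure, overlaps that just inside the limit. Acta2, Tagln and Myh11 together stood at 10750 CPM with 3 to 4 gate UMIs, 7651 with 5 to 9, 5402 with 10 to 29 and 1665 with 30 or more. Below the gate these muscle genes stood at 5433, 6825 and 6111 CPM with 0, 1 and 2 gate UMIs, and the muscle limit caps them in all of these barcodes. Depth and quality differed as well. With 3 to 4 gate UMIs the medians were 2042 UMIs and 16.9% mitochondrial UMIs, and with 30 or more they were 7256 and 10.8%. What part depth has in these levels was not tested.

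**Figure D2:**
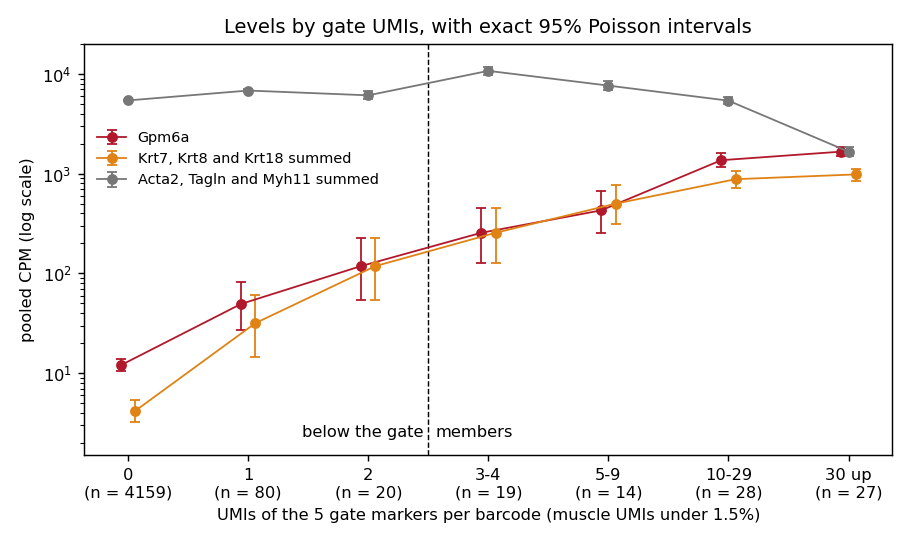
Pooled CPM on a log axis of Gpm6a, of 3 keratins summed and of 3 smooth muscle genes summed, in barcodes grouped by their UMIs of the 5 gate markers, with exact 95% Poisson intervals; the dashed line is the gate. Gpm6a lies at 12.0 CPM with 0 gate UMIs and at 1665 CPM with 30 or more, and the intervals on the 2 sides of the line overlap.

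Transcripts of neighbouring cell types were present in the mesothelial barcodes. Dcn, the fibroblast proteoglycan decorin, stood at 6087, 3371 and 5334 CPM, between the fibroblast (10520, 10870 and 11260 CPM) and other barcodes (248, 208 and 192 CPM). It reached the fibroblast limit of 0.3% in 55 of the 88. Those 55 held 1371 CPM of Gpm6a, and the 33 below the limit held 1157 CPM. The 12 fibroblast markers, of which 12 were detected, summed to 4518 to 11220 CPM by animal, against 25230 to 28320 CPM in fibroblast barcodes. That sum includes Dcn, which defines the fibroblast class, and the 11 others summed to 1147 to 5131 CPM, against 14710 to 17130 CPM. The 10 smooth muscle markers, all detected, summed to 2483 to 5201 CPM, against 8763 to 9776 CPM in fibroblast barcodes. It includes Acta2, Tagln and Myh11, which the rule limits in mesothelial barcodes alone, and the 7 others summed to 977 to 1941 CPM, against 2789 to 3160 CPM. The 10 endothelial markers, all detected, summed to 667 to 1618 CPM by animal, against 897 to 1820 CPM in fibroblast barcodes. Pooled over all barcodes of each class they ran the other way, at 1617 CPM in mesothelial and 806 CPM in fibroblast barcodes. What part these transcripts have in the differences below was not tested.

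A single barcode stood apart. It came from the 11-week animal, held 15662 UMIs, which is 28.8% of that animal's mesothelial UMIs, and passed the gate with 42 UMIs. It also held 43 UMIs of Pi16 and 4 of Pdgfra, both genes of adventitial fibroblasts, and 43 of the capillary gene Fabp4. No other mesothelial barcode held more than 3 UMIs of Pi16 and Pdgfra together. It held 43 of the 45 Pi16 UMIs of the mesothelial barcodes with a single hashtag (671, 0 and 13.3 CPM with TMM scaling). Values without it are given below for some of the genes it moved.

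To ask how mesothelial barcodes differ from fibroblast barcodes, UMIs were summed per animal and class and tested with edgeR's quasi-likelihood test, with the animal as a block and Benjamini-Hochberg adjustment over 8874 genes. Genes the rules read were not tested. Levels beside these tests are CPM after TMM scaling, differences are log2 fold changes ± SE, and a gene passed at an adjusted p under 0.05. Levels given for barcodes without a single hashtag carry no TMM scaling. In the tested sums the scaling factors were 1.11 to 1.21 for mesothelial and 0.93 to 0.94 for fibroblast sums. Unscaled levels there lie higher in mesothelial and lower in fibroblast barcodes than scaled ones, so small gaps are not comparable between the 2 scales. Of all genes tested, 503 were higher (5.67%) and 864 lower (9.74%) in mesothelial than in fibroblast barcodes. Against all other barcodes 788 were higher (8.88%) and 1117 lower (12.6%). Each count of a gene list below is to be read beside these shares of its own comparison. The median over all genes was -0.24 against fibroblast and -0.20 against other barcodes. Each p-value sets a difference between classes against the scatter left in the 9 sums of 3 animals once animal and class are fitted. The classes were cut from the barcodes tested, so no p-value says whether the class is real. The 57 mesothelial and 2279 fibroblast barcodes without a single hashtag took no part in the test. In them, 496 of the 503 higher genes were also higher and 788 of the 864 lower genes also lower, whereas 51.6% of all 8874 genes were higher. The size often differed. For 114 listed or named genes that passed as lower, the ratio of mesothelial to fibroblast CPM was taken without TMM scaling (floor of 3 UMIs in the tested sums). It was over 1.5 times nearer to equal in these barcodes than in the tested ones for 51, and it was equal or turned for 7. Of 74 that passed as higher these counts were 14 and 0.

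**Figure D3:**
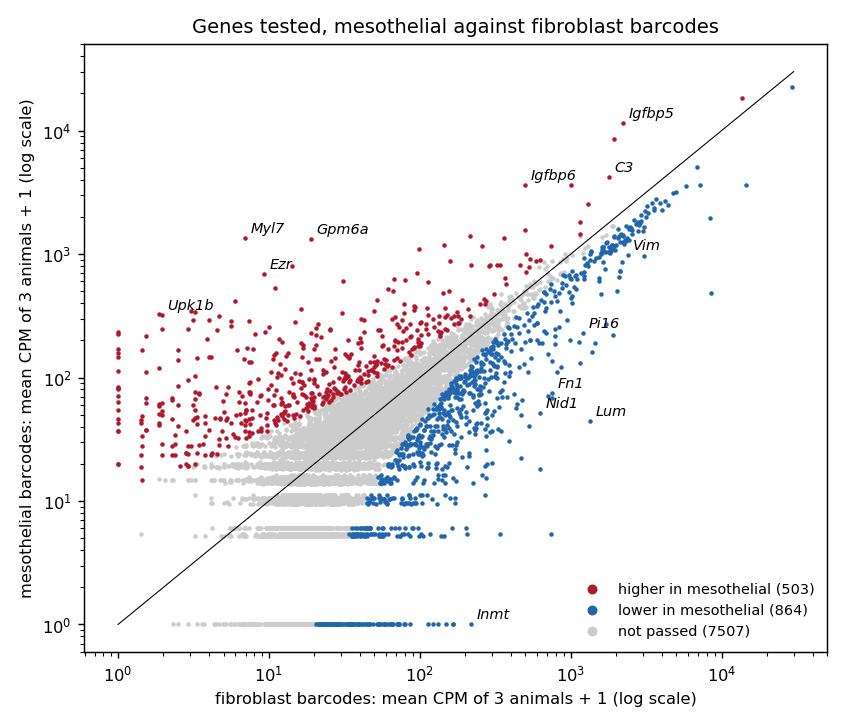
Mean CPM + 1 of 3 animals in mesothelial (vertical) against fibroblast barcodes (horizontal), both on log axes, for the 8874 genes tested; red genes were higher and blue genes lower in mesothelial barcodes. Gpm6a, Upk1b and Myl7 lie far above the line of equality, and Lum and Inmt far below it.

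Other genes known from mesothelium were nearly all higher. Of 16 tested, 13 rose and 0 fell against fibroblast barcodes, with a median log2 difference of 4.67 (-0.24 over all genes, of which 5.67% rose). Tcf21, Cd200 and Gata6 did not pass, and Calb2 and Chst4 were too low to test, with Calb2 at 0 UMIs in all 3 classes. Upk1b, a second uroplakin, stood at 290, 356 and 306 CPM in mesothelial and 0, 1.59 and 1.30 CPM in fibroblast barcodes. That is 70 UMIs against 2, a ratio of 347 (counting interval 92.7 to 2925). Gpm6a had a log2 difference of 6.19 ± 0.21 (adjusted p = 4.11e-45). Pkhd1l1, a fibrocystin-like membrane protein, stood at 503, 649 and 426 CPM, against 11.6, 15.9 and 2.59 CPM (5.75 ± 0.32). Slc39a8, a zinc importer, stood at 183, 458 and 146 CPM, against 5.14, 4.78 and 3.89 CPM (5.76 ± 0.45). For each of these genes the lowest mesothelial sample lay above the highest fibroblast one. They were named for their large differences, so this separation is a description.

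Transcription factors of the mesothelial and epicardial lineage were in the same list. Wt1, a zinc finger factor needed for the development of mesothelium and epicardium, stood at 107, 204 and 186 CPM, against 0, 6.37 and 9.08 CPM in fibroblast barcodes (5.01 ± 0.52, adjusted p = 9e-14). Bnc1, an epithelial zinc finger factor, had 18 UMIs in mesothelial and 0 in both other classes, which is at least 59.6-fold higher than fibroblast barcodes (floor of 3 UMIs over the class). Its call did not pass in 1 of 8 alternatives. Tbx18, a T-box factor of the epicardium, stood at 107, 216 and 106 CPM, against 27.0, 20.7 and 31.1 CPM (2.44 ± 0.38). Gata4, a cardiac and mesodermal factor, stood at 91.5, 76.4 and 66.5 CPM, against 10.3, 17.5 and 2.59 CPM (3.00 ± 0.57). Tcf21, an epicardial factor also known from fibroblasts, had 2 UMIs in mesothelial barcodes (15.2, 12.7 and 0 CPM, against 30.9, 25.5 and 22.0 CPM) and did not pass. Wt1, Bnc1, Tbx18 and Gata4 were thus detected in all 3 mesothelial samples.

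Keratins were higher and vimentin was lower. Krt8 and Krt18, which pair into the filaments of simple epithelia, stood at 137, 318 and 279 CPM and at 122, 356 and 253 CPM in mesothelial barcodes. In fibroblast barcodes they stood at 0, 3.18 and 2.59 CPM and at 6.43, 1.59 and 2.59 CPM. Their log2 differences were 6.99 ± 0.53 and 6.02 ± 0.47 (adjusted p = 7.28e-21 and 4.04e-20). Krt7, another keratin of simple epithelia, stood at 61.0, 356 and 319 CPM and had 56 UMIs against 2, a ratio of 278 (counting interval 73.4 to 2352). The 11-week animal was the lowest of 3 for each of these keratins. Vim, the filament protein of mesenchymal cells, was present in 86 of the 88 barcodes but lower, at 945, 967 and 1011 CPM, against 2450, 2506 and 2190 CPM in fibroblast barcodes (-1.29 ± 0.11, adjusted p = 1.68e-18).

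The 3 keratins moved together, so their promoters are shown, from 250 bases before to 50 after the annotated start (RefSeq, GRCm38.p6). Capitals mark matches on either strand to the GC box GGGCGG and the TATA box TATAAA, which 35.7% and 13.6% of 32851 promoters of this length hold.
Krt7, chr15:101412153-101412452, plus strand: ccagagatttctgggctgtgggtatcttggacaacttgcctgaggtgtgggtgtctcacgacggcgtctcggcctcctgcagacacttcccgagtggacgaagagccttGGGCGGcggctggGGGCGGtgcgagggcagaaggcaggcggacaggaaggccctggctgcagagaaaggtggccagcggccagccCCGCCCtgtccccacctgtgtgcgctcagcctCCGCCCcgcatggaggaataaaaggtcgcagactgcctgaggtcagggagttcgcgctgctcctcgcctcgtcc
Krt8, chr15:102004293-102004592, minus strand: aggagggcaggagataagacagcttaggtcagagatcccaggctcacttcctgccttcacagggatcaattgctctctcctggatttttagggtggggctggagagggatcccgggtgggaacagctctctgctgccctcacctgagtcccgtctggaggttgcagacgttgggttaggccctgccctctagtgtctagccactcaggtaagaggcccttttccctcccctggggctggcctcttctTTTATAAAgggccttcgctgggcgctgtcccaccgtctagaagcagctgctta
Krt18, chr15:102027966-102028265, plus strand: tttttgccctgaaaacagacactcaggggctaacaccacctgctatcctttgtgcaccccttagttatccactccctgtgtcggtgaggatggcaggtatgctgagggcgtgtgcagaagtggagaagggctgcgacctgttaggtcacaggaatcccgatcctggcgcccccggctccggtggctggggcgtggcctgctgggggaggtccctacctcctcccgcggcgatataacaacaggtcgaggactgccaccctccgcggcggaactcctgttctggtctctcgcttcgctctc
Krt7 had 4 GC box matches and 0 TATA box matches, Krt8 had 0 and 2 (overlapping, 1 on each strand), and Krt18 had 0 of either. The CCAAT box (letters CCAAT, in 37.4% of promoters) was in none of the 3. Krt8 and Krt18 start 23874 bases apart on opposite strands, and Krt7 starts 591939 bases from Krt8. A match describes the letters only.

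Of 11 apical membrane and microvillus genes 4 rose, 2 fell and 5 did not pass (median 0.81). Ezr, the linker ezrin that ties microvilli to actin, stood at 366, 955 and 731 CPM, against 12.9, 7.96 and 3.89 CPM in fibroblast barcodes (6.36 ± 0.32, adjusted p = 5.92e-33). Slc9a3r1, the scaffold that binds ezrin, stood at 274, 318 and 266 CPM, against 5.14, 4.78 and 9.08 CPM (5.47 ± 0.40). Pdpn, a mucin-like membrane protein, and Espn, an actin bundler of microvilli, also rose (1.93 ± 0.30 and 3.23 ± 0.57). Msn, the ezrin relative of mesenchymal cells, fell (-1.26 ± 0.25), as did the tetraspanin Cd9 (-1.88 ± 0.18).

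Of 15 junction and polarity genes 7 rose, 1 fell and 7 did not pass (median 0.52), and 10 more were too low to test. Cldn15, a pore-forming claudin, stood at 351, 344 and 239 CPM, against 5.14, 3.18 and 2.59 CPM in fibroblast barcodes (6.40 ± 0.44, adjusted p = 1.65e-23). F11r, a tight junction adhesion molecule, stood at 152, 153 and 266 CPM, against 24.4, 11.1 and 10.4 CPM (3.64 ± 0.39). Cdh3, P-cadherin, had 14 UMIs against 0, at least 46.3-fold higher, whereas E-cadherin (Cdh1) had 0 UMIs in mesothelial barcodes. Gja1, the gap junction protein connexin 43, rose by 1.56 ± 0.29. The call on Dsp, a desmosome protein, rested on 3 UMIs and did not pass in 7 of 12 alternatives, and that on Cldn10 did not pass in 4 of 11.

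Genes that move water and ions were mostly higher: 7 of 11 rose and 1 fell, with a median of 1.79. The gene that fell was Atp1b3, a sodium pump subunit (-0.98), whose call did not pass in 2 of 12 alternatives. Aqp1, the main water channel of mesothelium and capillaries, stood at 823, 1337 and 1130 CPM, against 109, 123 and 59.6 CPM in fibroblast barcodes (3.53 ± 0.17, adjusted p = 4.53e-34). It was also higher than in all other barcodes (2.47). Slc16a1, a lactate carrier, stood at 137, 293 and 239 CPM, against 10.3, 9.55 and 1.30 CPM (5.0 ± 0.45). Atp1b1, a sodium pump subunit, stood at 839, 356 and 319 CPM, against 54.0, 74.8 and 67.4 CPM (2.91 ± 0.25), and Slc4a4, a bicarbonate carrier, rose by 1.73 ± 0.25. Aqp1, Slc16a1 and Atp1b1, named for their large differences, were thus higher in each of the 3 animals, while Atp1b3 went the other way. The call on Slc12a2, a chloride carrier, did not pass in 2 of 11 alternatives. In the barcodes without a single hashtag it stood at 27.6 CPM, against 15.2 CPM in fibroblast barcodes. Car2, also among the genes that rose, had 7 UMIs in the single-hashtag mesothelial barcodes. Without a single hashtag it stood at 4.60 CPM, against 2.87 CPM in fibroblast barcodes.

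**Figure D4:**
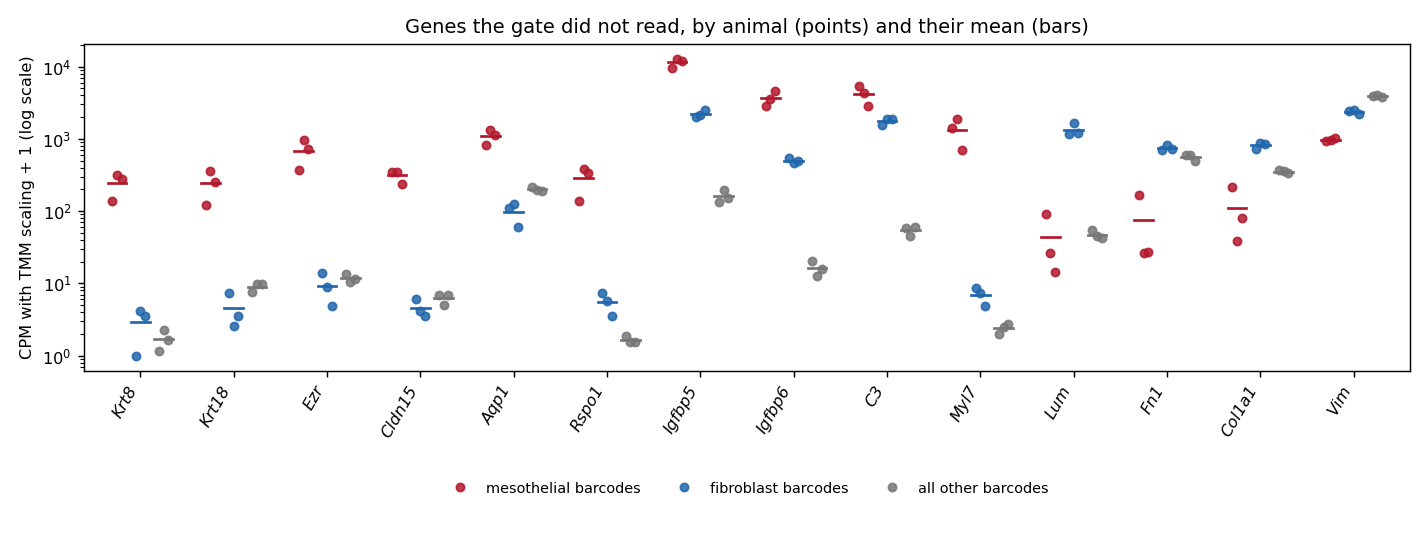
CPM with TMM scaling + 1 on a log axis for 14 genes that the gate did not read; each point is 1 animal and each bar the mean of 3, for mesothelial, fibroblast and other barcodes from left to right. Igfbp5 reaches 12780 CPM in mesothelial barcodes, and the matrix genes Lum, Fn1 and Col1a1 lie below their fibroblast levels in all 3 animals.

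Some of the most abundant mesothelial transcripts encode secreted binding proteins. Igfbp5, which binds insulin-like growth factors, stood at 9667, 12780 and 11800 CPM, against 2021, 2133 and 2498 CPM in fibroblast barcodes (2.35 ± 0.08, adjusted p = 4.11e-45), and was seen in 87 of the 88 barcodes. Igfbp6, a relative with a preference for IGF2, stood at 2821, 3513 and 4535 CPM, against 539, 462 and 486 CPM (2.88 ± 0.11, adjusted p = 3.47e-43). Igfbp4 and Igfbp7 went the other way (-1.73 ± 0.14 and -1.36 ± 0.11), and Igfbp2 and Igfbp3 did not pass. Igfbp3 differed widely between animals, at 15.2, 0 and 213 CPM. Of the 6 members, 2 thus rose and 2 fell.

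Retinoid genes were split in the same way: 3 of 11 rose and 3 fell. Aldh1a1 and Aldh1a2, which make retinoic acid, stood at 137, 344 and 293 CPM and at 107, 293 and 319 CPM, against 74.6, 73.2 and 68.7 CPM and 65.6, 111 and 109 CPM in fibroblast barcodes (1.86 ± 0.29 and 1.32 ± 0.29). For Aldh1a2 the 11-week mesothelial sample lay inside the fibroblast range. Rarres2, which encodes the chemoattractant chemerin and is induced by retinoids in skin, stood at 3110, 3768 and 3950 CPM, against 921, 1091 and 998 CPM (1.85 ± 0.09, adjusted p = 1.85e-33). Rbp4, the plasma retinol carrier, fell (0, 38.2 and 66.5 CPM, against 256, 315 and 307 CPM). Aldh1a3, at 0 UMIs against 46, passed here and in 0 of 9 alternatives.

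Growth factor and Wnt genes were divided, with 5 of 22 higher and 6 lower. Rspo1, which amplifies Wnt signals, stood at 137, 382 and 333 CPM, against 6.43, 4.78 and 2.59 CPM in fibroblast barcodes (5.91 ± 0.45, adjusted p = 7.54e-21). Its relative Rspo3 ran the other way, with 1 UMI against 175, a ratio of 17.6 in favour of fibroblast barcodes (counting interval 3.12 to 700). Wnt4 and Fgf9, both secreted ligands, rose as well, on 10 and 14 UMIs in mesothelial and 8 and 13 UMIs in fibroblast barcodes (3.58 ± 0.78 and 3.41 ± 0.67). Mdk, the heparin-binding factor midkine, had 0 UMIs against 243, at least 8.16-fold lower, which holds for the single-hashtag barcodes alone. In those without a single hashtag it stood at 59.8 CPM, against 110 CPM in fibroblast barcodes. Sfrp1 and Dkk3, which dampen Wnt signals, fell by 2.78 ± 0.41 and 2.54 ± 0.36 on the log2 scale. Wnt5a fell by 1.84 ± 0.35 (133 and 197 CPM without a single hashtag), and Vegfc, at 0 UMIs against 48, did not pass in 7 of 10 alternatives.

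Of 12 complement genes tested against fibroblast barcodes 4 rose and 4 fell (median -0.21). The median was 0.01 with Cfd, at 0 UMIs and too low in fibroblast barcodes for a bound, set to a log2 difference of 0. Against all other barcodes 10 rose and 2 fell (median 2.96). C3, the central component, stood at 5352, 4341 and 2806 CPM in mesothelial, 1574, 1888 and 1873 CPM in fibroblast and a mean of 53.0 CPM in other barcodes (1.21 ± 0.10 against fibroblast barcodes, adjusted p = 2.18e-18). C2, a protease of the classical pathway, stood at 244, 318 and 466 CPM, against 38.6, 62.1 and 45.4 CPM (2.83 ± 0.29). Clu, clusterin, rose by 1.48 ± 0.15. Cd55, which protects cells from complement, fell (15.2, 102 and 13.3 CPM, against 202, 201 and 228 CPM). The 2 comparisons share the mesothelial samples, and the difference between them was not tested.

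Of 8 cytokine and antimicrobial genes tested against fibroblast barcodes, 2 rose and 1 fell, where 5.67% of all genes rose and 9.74% fell. Slpi, a secreted inhibitor of neutrophil elastase, had 73 UMIs against 2, a ratio of 362 (counting interval 96.8 to 3048), although 29 of its 73 UMIs came from 1 barcode. Il18, an interleukin of epithelia, stood at 45.7, 153 and 133 CPM, against 10.3, 4.78 and 13.0 CPM (3.52 ± 0.51). Cxcl12, a chemokine of stromal cells, stood at 107, 0 and 39.9 CPM, against 458, 487 and 467 CPM (-3.36 ± 0.33, and -4.56 without the barcode rich in Pi16). Of 22 listed genes 14 were too low to test, Il6, Ccl2 and Lcn2 among them.

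Interstitial matrix genes were lower than in fibroblasts with few exceptions. Of 30 genes 25 fell and 3 rose, with a median of -2.05. Lum, the proteoglycan lumican, stood at 91.5, 25.5 and 13.3 CPM, against 1177, 1667 and 1185 CPM in fibroblast barcodes (-5.03 ± 0.27, adjusted p = 2.63e-30, and -6.08 without the barcode rich in Pi16). Fn1, fibronectin, stood at 168, 25.5 and 26.6 CPM, against 701, 830 and 731 CPM (-3.46 ± 0.26, and -4.67 without it), though at 193 and 631 CPM in mesothelial and fibroblast barcodes without a single hashtag. Col1a1, the main chain of collagen I, stood at 213, 38.2 and 79.8 CPM, against 727, 861 and 838 CPM (-2.94 ± 0.23), and at 239 and 763 CPM without a single hashtag. In each of these the 11-week animal was the highest mesothelial sample, and it alone holds that barcode. Col3a1 was nearer, at 961, 751 and 479 CPM, against 1797, 2326 and 2258 CPM (-1.56 ± 0.13).

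The 3 exceptions were Fmod, Efemp1 and Fbln1. Fmod, the collagen-binding fibromodulin, stood at 122, 331 and 293 CPM, against 86.2, 73.2 and 79.1 CPM (1.67 ± 0.29). Efemp1, fibulin-3, a secreted protein used as a marker of mesothelial tumours, stood at 579, 1120 and 745 CPM, against 302, 355 and 356 CPM (1.28 ± 0.15, adjusted p = 1.10e-11). Fbln1, fibulin-1, stood at 640, 840 and 665 CPM, against 478, 505 and 524 CPM, a small rise (0.52 ± 0.15) that did not pass in 4 of 12 alternatives. All 3 were far above other barcodes, by 6.17, 5.26 and 5.13 on the log2 scale.

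Basement membrane genes also tended lower: of 19 tested, 11 fell and 0 rose against fibroblast barcodes (median -1.0). Nid1, which links laminin to collagen IV, stood at 137, 0 and 13.3 CPM, against 531, 707 and 637 CPM (-3.77 ± 0.33). All but 1 of its 10 UMIs came from the barcode rich in Pi16, and without that barcode the log2 difference was -6.97. Lama2, a laminin chain of muscle and fibroblasts, had all 5 of its UMIs there, so without that barcode its level is 0 UMIs, and with it the log2 difference was -2.89 ± 0.50. Col4a1, a collagen IV chain, stood at 198, 153 and 120 CPM, against 311, 334 and 305 CPM (-1.03 ± 0.23), and at 248 and 323 CPM without a single hashtag. Perlecan (Hspg2) stood at 30.5, 25.5 and 26.6 CPM, against 149, 172 and 163 CPM (-2.56 ± 0.43), but at 87.4 and 129 CPM in mesothelial and fibroblast barcodes without a single hashtag. Col4a2 stood there at 106 and 127 CPM, and Col4a5 at 166 and 142 CPM, a small gap on levels without TMM scaling. Every gene of the list that fell had a ratio nearer to equal there, apart from Nid1 (23.0 and 453 CPM) and Lama2 (4.60 and 150 CPM). With fibroblast and other barcodes held under the same muscle limit, 7 of 18 fell and 1 rose, and with the caller on hashtag ratios 10 fell and 3 rose.

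Of 11 coagulation genes 5 were lower and 0 higher than in fibroblast barcodes (median -1.07). Against all other barcodes 5 were higher and 2 lower (median 1.08), with F3 and Serpinf1 among the higher (2.00 and 1.56). Serpinf1, the anti-angiogenic serpin PEDF, stood at 122, 38.2 and 39.9 CPM, against 638, 884 and 743 CPM (-3.56 ± 0.28). Serpine2, a thrombin inhibitor, fell by 2.67 ± 0.39 on the log2 scale, with a smaller gap of 166 and 245 CPM in the barcodes without a single hashtag. Against fibroblast barcodes thrombomodulin (Thbd) fell by 2.15 ± 0.38 and tissue factor (F3) by 2.05 ± 0.35. Among 11 glycocalyx and lubrication genes 2 rose and 1 fell, where 5.67% of all genes rose and 9.74% fell. Gpc3, a heparan sulphate proteoglycan, stood at 976, 777 and 625 CPM, against 211, 361 and 284 CPM (1.46 ± 0.16), and Sdc4, a syndecan, rose by 1.20 ± 0.23. Prg4, the joint lubricant lubricin, had 6 UMIs and was lower (-1.74 ± 0.54), which did not pass in 4 of 12 alternatives. Has1, the hyaluronan synthase, had 2 UMIs and did not pass.

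Of 14 genes of epithelial to mesenchymal transition 7 fell and 1 rose (median -1.0, or -0.77 with genes at 0 UMIs at their bound). Zeb2 and Zeb1, repressors of epithelial genes, fell by 3.87 ± 0.44 and 1.31 ± 0.32 on the log2 scale, Zeb1 not in 1 of 12 alternatives. Tgfb2, a TGF-beta ligand, rose by 0.93 ± 0.27 and did not pass in 3 of 12 alternatives, and Foxc2 and Tgfb1, each at 0 UMIs in mesothelial barcodes, did not pass in 4 and 5 of 12. Snai1 and Snai2 were too low to test.

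The series title names mechanosensing. Of 21 such genes 1 rose and 3 fell against fibroblast barcodes, where 5.67% of all genes rose and 9.74% fell (median -0.43). Of these genes 2 had 0 UMIs in the single-hashtag mesothelial barcodes and too few in fibroblast barcodes for a bound. With both set to a log2 difference of 0 the median was 0.00, which is that set value. Ccn2, a target of YAP, stood at 122, 127 and 133 CPM, against 539, 444 and 494 CPM (-1.95 ± 0.23, adjusted p = 7.92e-12). In the barcodes without a single hashtag the gap was smaller, at 396 and 566 CPM. Piezo1, a stretch-gated channel, stood at 15.2, 102 and 39.9 CPM, against 23.1, 22.3 and 11.7 CPM and did not pass (1.5 ± 0.57), nor did Yap1 (0.62 ± 0.51). Calls on Ccn1, Vcl and Cavin2 did not pass in 3, 2 and 4 of 12 alternatives, and without a single hashtag Ccn1 and Vcl stood at 92.0 and 133 CPM in mesothelial and at 106 and 142 CPM in fibroblast barcodes. Under the common muscle limit 1 gene of 18 fell and 2 rose. Of 12 integrin genes 5 fell and 2 rose. Itga8 stood at 168, 102 and 53.2 CPM, against 355, 363 and 383 CPM (-1.80 ± 0.25). In mesothelial and fibroblast barcodes without a single hashtag it stood at 460 and 457 CPM, without TMM scaling. Itgb1, the shared beta chain, fell by 0.85 ± 0.15. Calls on Itga9, Itga1 and Itgb8 did not pass in 3, 4 and 3 of 12. Itga1 stood at -1.60, at -2.29 without the barcode rich in Pi16, and at 124 and 96.8 CPM in mesothelial and fibroblast barcodes without a single hashtag.

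Immediate early and heat shock genes, which respond to tissue digestion, were low. Of 12 genes 9 fell and 0 rose against fibroblast barcodes (median -2.58, or -2.12 with genes at 0 UMIs at their bound), and likewise 9 and 0 against all others. Jun stood at 45.7, 25.5 and 53.2 CPM, against 261, 231 and 267 CPM (-2.63 ± 0.35), with a smaller gap of 152 and 235 CPM in the barcodes without a single hashtag. Egr1 had 2 UMIs against 583, a ratio of 29.4 in favour of fibroblast barcodes (counting interval 8.09 to 243), and both of its UMIs lay in the barcode rich in Pi16. In the barcodes without a single hashtag it stood at 96.6 CPM, against 289 CPM in fibroblast barcodes. With DESeq2 4 of the 12 passed, and calls on Fosb, Hspa1a and Ier2 did not pass in 5 of 11, 4 of 12 and 4 of 12 alternatives. Of 6 proliferation genes 5 were too low to test, with Mki67 and Top2a at 1 UMI each in the 88 barcodes. Pcna, a replication clamp seen in 11 of the 88, did not pass (-0.79, adjusted p = 0.441).

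**Figure D5:**
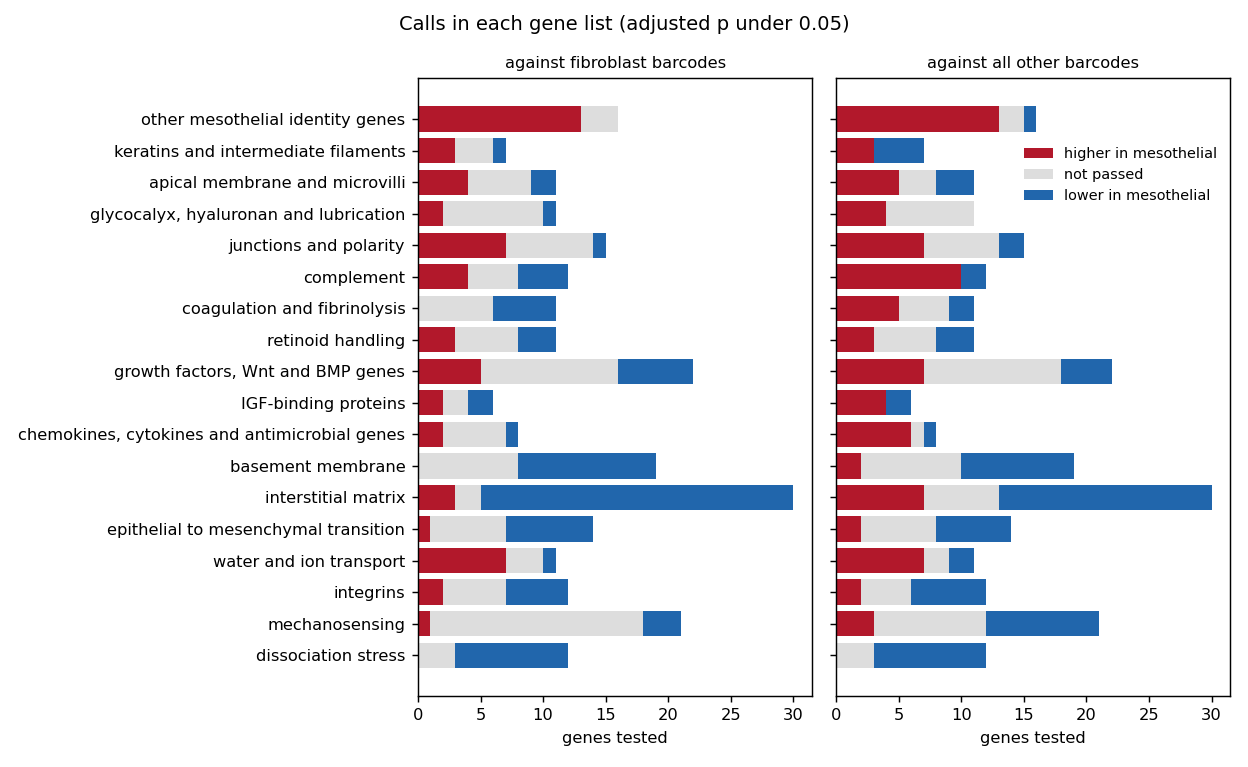
Number of genes in each list that were higher, lower or did not pass in mesothelial barcodes against fibroblast (left) and all other barcodes (right). Mesothelial identity and transport genes lean to higher and matrix genes to lower on both sides, while complement is even on the left (4 and 4 of 12) and higher on the right (10 of 12).

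A few markers of other cell types were high in mesothelial barcodes. Myl7, the atrial myosin light chain, stood at 1403, 1909 and 705 CPM, against 7.72, 6.37 and 3.89 CPM in fibroblast barcodes (7.75 ± 0.27, adjusted p = 2.12e-44), and was seen in 55 of the 88. Of the 6 other cardiomyocyte markers, Myh6 and Nppa had 0 UMIs in the 88, Actc1 had 1, Myl4 had 2, Tnni3 had 5 and Ryr2 had 8. Pooled, Tnni3 stood at 12.2 CPM, against 1.02 CPM in fibroblast barcodes, and Ryr2 at 19.5 CPM, against 21.0 CPM. Kdr, a VEGF receptor of endothelium, stood at 213, 547 and 239 CPM, against 37.3, 30.2 and 20.7 CPM (3.56 ± 0.30), while the endothelial markers Pecam1, Egfl7, Vwf and Fabp4 were lower than in fibroblast barcodes and 5 others did not pass. In the barcodes without a single hashtag 3 of these 4 were on the other side. Fabp4 stood there at 1435 CPM, against 507 CPM in fibroblast barcodes, Egfl7 at 96.6 CPM, against 27.4 CPM, and Vwf at 46.0 CPM, against 13.0 CPM, with Pecam1 at 32.2 CPM, against 36.2 CPM. The calls on Pecam1, Egfl7, Vwf and Fabp4 did not pass in 2, 7, 4 and 1 of 12 alternatives. Without the barcode rich in Pi16, Pecam1 and Egfl7 stood at -3.24 and -2.47 in place of -2.04 and -1.60. Dpp4, a protease that also marks adventitial fibroblasts, stood at 244, 356 and 319 CPM, against 59.2, 68.5 and 73.9 CPM (2.20 ± 0.27). It was the only fibroblast marker of 11 to rise against fibroblast barcodes, and the 10 others fell. The median over all 11 was -3.17, and -5.29 without the barcode rich in Pi16. Pi16 and Pdgfra themselves were at -2.54 and -3.82, and at -6.94 and -5.29 without it. Against all other barcodes, 6 of the 11 fibroblast markers rose and 1 fell (median 1.96). Mbp, a myelin gene, had 16 UMIs against 18 in the far larger fibroblast sums (3.19 ± 0.62), with the Schwann cell gene Sox10 at 0.

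Outside the lists, the 12 genes with the greatest rise included several known from epithelia. Slc26a3, a chloride and bicarbonate exchanger of the gut, stood at 107, 331 and 266 CPM with 0 UMIs in fibroblast barcodes, at least 175-fold higher. Cxadr, a tight junction adhesion molecule that is also the coxsackievirus receptor, stood at 259, 229 and 186 CPM, at least 162-fold higher. Wfdc2, a secreted protease inhibitor known as HE4, stood at 168, 166 and 173 CPM (at least 122-fold), nearly the same in each animal. Il18r1, a receptor chain for interleukin 18, and Plet1, an epithelial surface protein, were at least 116-fold and 109-fold higher. Il18, named above, was higher in the same barcodes.

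Of the remaining 7, Bst1, Myo5b, Lrp2 and Tm4sf5 had 1 to 3 UMIs in fibroblast barcodes. Their ratios were 467 (counting interval 79.8 to 18820), 367 (61.9 to 14890), 122 (38.8 to 621) and 103 (32.0 to 524). Lrp2 encodes megalin, an endocytic receptor, and Myo5b a motor of apical recycling. Cybrd1, a ferric reductase, Fxyd3, a regulator of the sodium pump, and Lgals7, a galectin of epithelia, rose by 7.50 ± 0.49, 7.18 ± 0.47 and 6.97 ± 0.50. Cybrd1 stood at 381, 369 and 293 CPM, and Fxyd3 at 488, 318 and 213 CPM.

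The 6 genes with the greatest fall outside the lists had 0 UMIs in the single-hashtag mesothelial barcodes. Inmt, a methyltransferase, had 467 UMIs in fibroblast barcodes, at least 15.7-fold lower in mesothelial ones. Tgfbi, G0s2 and Ace were at least 12.0-fold, 11.9-fold and 10.8-fold lower. Pdgfrb, the PDGF receptor of stromal and mural cells, was at least 9.40-fold lower, and Comp, a cartilage and tendon matrix protein, at least 8.46-fold lower. These bounds hold for the single-hashtag barcodes. In the others Inmt stood at 13.8 CPM, against 262 CPM in fibroblast barcodes, Tgfbi at 4.60 CPM, against 131 CPM, and G0s2 at 9.20 CPM, against 106 CPM. Ace stood there at 18.4 CPM, against 133 CPM, Pdgfrb at 41.4 CPM, against 117 CPM, and Comp at 0, against 71.9 CPM. The gaps of G0s2, Ace and Pdgfrb are smaller there than their bounds.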

How the data were processed

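The authors deposited 1 matrix of UMI counts (raw, not normalized) for 32285 genes and 3 hashtags, whose file header names Cell Ranger software version 6.0.1. The submitters' processing notes list the mm10 build and Seurat 4.0.5. It holds 166848700 gene UMIs and 44898085 hashtag UMIs. Libraries were 10x 3' version 2 per the labels' protocols, and 0 columns of other samples were left out. Hashtags were called with Seurat 5.3.0 HTODemux (positive quantile 0.99). Barcodes with several hashtags or none stayed in pooled levels and out of tests, and no doublet caller was run.

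UMIs were summed per hashtag and class (9 sums) and tested with edgeR 4.0.16 (R 4.3.3; TMM, filterByExpr, glmQLFit and glmQLFTest), with the hashtag as a block because same-numbered sums come from the same animal. Same-animal deviations over 934 genes correlated at -0.029 to 0.02 between mesothelial and fibroblast sums and at 0.041 to 0.185 between mesothelial and other sums. The code was tested on simulated counts. DESeq2 1.42.0 was an alternative. With 1 animal per age, the p-values rest on 3 animals and on the scatter left once animal and class are fitted. Exact Clopper-Pearson and Poisson intervals (scipy 1.17.1) cover counting error only.

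The members and the lists were chosen with earlier results of these data known. Named genes were up to 4 called genes per list with the largest difference and at least 20 UMIs, and outside the lists the 12 highest and 6 lowest with at least 30 UMIs. Further list members were named as examples after their values were seen. Some genes counted in the lists are not reported here by name.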

Additional observations from a re-analysis of the deposited data

Results flagged for a closer look

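Barcodes that took no part in the tests also carried mesothelial transcripts. In the 57 mesothelial barcodes without a single hashtag Gpm6a stood at 1131 CPM, against 8.18 CPM in fibroblast barcodes without one. The 58 barcodes that passed the gate but exceeded the muscle limit held 222 CPM of Krt7, Krt8 and Krt18 together, against 4.86 CPM in fibroblast and 8.76 CPM in other barcodes. Their Gpm6a stood at 341 CPM and their median of gate UMIs was 4.5. What part muscle transcripts have in these values was not tested.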

How the results depend on the processing

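The share of mesothelial barcodes, 0.360%, stood at 0.259% with at most 10% mitochondrial UMIs, 0.282% with at least 5 gate UMIs, 0.597% with no muscle limit, 0.577% with a limit of 3% and 0.503% with haemoglobin under 1%. Against fibroblast barcodes DESeq2 called 533 genes higher and 552 lower, and against other barcodes 867 and 733, so higher genes made up 49.1% and 54.2% of its calls, against 36.8% and 41.4% with edgeR. With barcodes on which both hashtag callers agreed, an alternative added after the data were seen, only 5001 genes were tested. Of these, 506 and 670 were lower, against 864 and 1117 of 8874 in the main test, so the counts alone are not comparable. Leaving out 1 animal at a time gave 329 to 383 higher and 539 to 608 lower genes against fibroblast barcodes, and 536 to 561 and 723 to 770 against other barcodes. Without the replicate block 487 and 829 genes passed against fibroblast barcodes and 782 and 1102 against others. Without the barcode rich in Pi16, also added after the data were seen, they were 500 and 932, and 751 and 1151. Of 88 genes named by the rules of largest difference, 68 kept their call in every alternative that tested them and 20 lost it in at least 1 of 12. Of these genes 0 reversed, and the fold of 65 moved by over 1.5 times in at least 1. List members named as further examples are not in this count, and some of them, Fbln1 and Egfl7 among them, also lost their call. The cause of these shifts was not tested. With at most 10% mitochondrial UMIs, or with Dcn under 0.3% in mesothelial barcodes, under 5 barcodes per animal remained and gene tests were not run. The 31 single-hashtag barcodes limit what low genes can show.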
